A study of Bos taurus with 18 samples.

Results

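The genes described here handle vitamin A derivatives or answer to them, and they were measured in libraries labelled as bovine fibroblasts. Most of the Holstein-like libraries held organ transcripts, as described below. There were 9 of them among the 24596 genes of the deposited table: CRABP1, CRABP2, ALDH1A1, ALDH1A2, CYP26B1, RARRES1, RARA, RARB and RARG. Each was found by its gene name, and each of the 9 names stood on 1 row, so no choice between rows was needed. The names were chosen by a proposal that had counts and CPM of these same libraries in view. The differences between stages therefore describe these genes and are no support for the choice of them.

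RNA was sequenced from 2 cattle lines, labelled Simmental-like (primary culture PBF-13) and Holstein-like (PBF-15), at 3 stages each, with 3 libraries per stage and 18 in all. The series describes fibroblasts of Simmental and Holstein cows that were kept in culture until spontaneous immortalization. Outside the column names given below and the sample descriptions that match them, the labels state no transgene or treatment for either line. The Simmental-like stages are primary (PBF-13), senescent (Sn-BF-13) and immortalized (HUN-BF-13). The count columns of primary libraries carry the name BDF-20-3B-4. Those of senescent libraries carry BDF-20-MultiXray-Ctrl, which holds the words Xray and Ctrl. Whether these cells were irradiated, or were controls of such an experiment, is not stated. The columns of immortalized libraries carry BF-13. Stage and column name, with any culture or treatment behind that name, therefore cannot be told apart. The Holstein-like stages are primary (PBF-15, with columns named BEF), senescent (Sn-BF-15) and immortalized (HUN-BF-15). Columns of the senescent libraries are named BF-15-P9 and those of the immortalized ones BF-15-P23. What P9 and P23 stand for is not stated, and stage and column name cannot be told apart here either. Every Holstein-like column name ends in Rerun and no Simmental-like one does, so line and this ending cannot be told apart. Separate cultures for the 3 replicates of a stage are not stated, so each p-value is read against a spread between libraries that may be technical only. The 3 comparisons share libraries in pairs.

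Retinol is taken up and stored by binding proteins and esterifying enzymes, and is converted to retinal by retinol dehydrogenases. Aldehyde dehydrogenases of the ALDH1A family then make retinoic acid, CRABP proteins carry it in the cytoplasm, and CYP26 enzymes break it down. In the nucleus retinoic acid binds the receptors RARA, RARB and RARG, which pair with RXR receptors and switch genes on or off. Fibroblasts are known to respond to retinoids with changes in matrix and growth genes.

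The Simmental-like libraries held 18215984 to 23197201 counts, and the later Holstein-like ones 10984796 to 14085489. The 3 Holstein-like primary libraries held 1424479 to 1466911. Levels are given as CPM, the count scaled to a common library total. A count of 0 allows a level of up to 3 counts, or 0.129 to 0.165 CPM in Simmental-like libraries. Such limits and all count intervals cover counting error only. A list of 10 fibroblast genes, among them COL1A1, DCN and VIM, took 4.98% to 6.62% of the counts in primary, 4.12% to 4.18% in senescent and 5.25% to 5.94% in immortalized Simmental-like libraries. The 3 primary libraries differed widely from each other (chi-square per gene 41.8 to 370.3), whereas senescent libraries 1 and 2 were close to counting noise (1.36). Changes are log2 values ± SE from an edgeR quasi-likelihood fit on the 9 Simmental-like libraries with TMM scaling, and a change passed when its Benjamini-Hochberg adjusted p over all 13099 genes tested was under 0.05. TMM scaling raised primary libraries (factors 0.725 to 0.915) and lowered senescent ones (1.16) relative to total counts. Under total-count scaling the median change of all genes shifted by 0.46 for senescent against primary, by -0.16 for immortalized against senescent and by 0.30 for immortalized against primary.

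Most of the 9 genes stood lower at the later stages. Between senescent and primary libraries 7 of 9 passed, 1 higher and 6 lower, where 58% of all tested genes passed (28.3% higher, 29.7% lower). Between immortalized and senescent libraries 6 of 9 passed, all of those 6 lower, where 32.4% of all tested genes passed (16.1% lower). Between immortalized and primary libraries 8 of 9 passed, all of those 8 lower, where 50.4% passed (25.5% lower). Groups did not overlap in CPM for 7, 9 and 7 of the 9 genes in these comparisons, against 69.2%, 71.5% and 58.4% of all tested genes. The median change of the 9 genes was -1.02, -2.98 and -4.40, against 0.01, -0.0018 and -0.0014 over all tested genes, and it was the same with genes near 0 counts set at their count ratio. All 9 passed the filter on low counts, CRABP1 only through the primary and ALDH1A2 only through the senescent libraries, so these counts and medians describe the genes and support nothing.

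**Figure D1:**
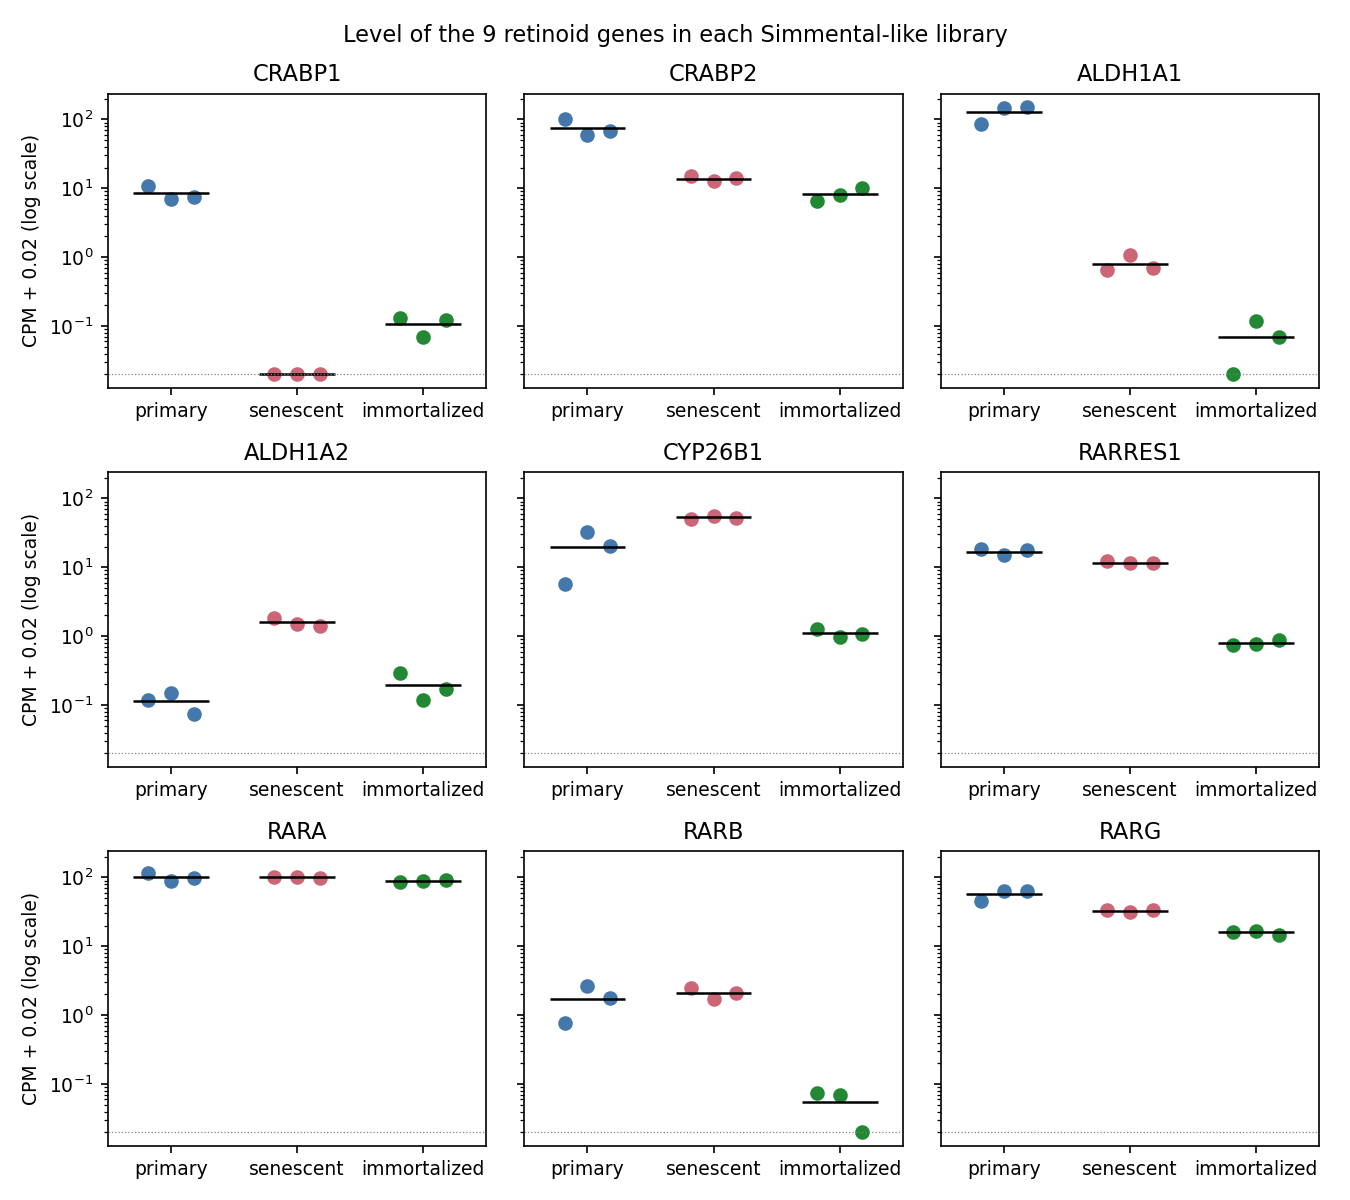
CPM by column total plus 0.02, on a log scale, of the 9 retinoid genes in each of the 9 Simmental-like libraries. Each point is 1 library, in replicate order within a stage, the black line is the mean of 3, and the dotted line marks 0 counts. CRABP1, CRABP2 and ALDH1A1 are high in primary libraries, ALDH1A2 and CYP26B1 are highest in senescent ones, and RARA stays between 85.4 and 118 CPM in every library.

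The carriers of retinoic acid, CRABP1 and CRABP2, were highest in primary libraries. CRABP1 had 10.7, 7.03 and 7.45 CPM in primary libraries, 0 in each senescent library, and 0.110, 0.0499 and 0.101 CPM in immortalized ones. The groups did not overlap, and nearly all counts lay in the primary libraries. The 3 senescent libraries together held 0 counts, against 517 in the primary ones. With 3 counts as the floor for the summed group, CRABP1 was 165-fold lower in senescent than in primary libraries. This ratio leaves out the counting error of the 517 counts and is no strict lower bound. Immortalized libraries were also lower than primary ones (log2 change -6.85 ± 0.47, adjusted p = 5.1e-05). The immortalized libraries held 5 counts, against 0 in the senescent ones. That was 1.70-fold the floor of 3 counts, a ratio that leaves out the counting error of the 5 and is no lower bound. The difference did not pass (adjusted p = 0.0856). It passed with DESeq2 (adjusted p = 0.0416), limma-voom (adjusted p = 0.0219), total-count scaling (adjusted p = 0.0404), the replicate block (adjusted p = 0.0359) and without primary library 1 (adjusted p = 0.0150).

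CRABP2, the second carrier, which delivers retinoic acid to RARA and its relatives in mammalian cells, fell without being lost. It had 101, 60.2 and 67.1 CPM in primary libraries, 14.9, 12.6 and 14.1 CPM in senescent and 6.59, 7.88 and 9.92 CPM in immortalized ones. The stages did not overlap, in that order. It averaged 13.8 ± 1.2 CPM in senescent libraries, against 76.1 ± 22 CPM in primary ones (SD, n = 3 each; log2 change -2.97 ± 0.30, adjusted p = 8.6e-05). Immortalized libraries, at 8.13 ± 1.7 CPM, also lay below primary ones (log2 change -3.58 ± 0.31, adjusted p = 3.0e-05). The step between immortalized and senescent libraries did not pass (-0.60 ± 0.29, 95% interval -1.26 to 0.06, adjusted p = 0.146). It passed when only those 6 libraries were fitted (-0.62, adjusted p = 0.0039), without primary library 1 (-0.61, adjusted p = 0.0063) and under total-count scaling (-0.77, adjusted p = 0.0326).

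ALDH1A1 and ALDH1A2, enzymes that make retinoic acid, moved in opposite directions between senescent and primary libraries. Their relative ALDH1A3, described below, did not pass in that comparison. ALDH1A1, a retinal dehydrogenase that is abundant in many adult tissues, had 84.5, 144 and 152 CPM in primary libraries, 0.629, 1.05 and 0.670 CPM in senescent and 0, 0.0997 and 0.0506 CPM in immortalized ones. No library of 1 stage reached into another stage. The log2 change of senescent against primary libraries was -7.78 ± 0.31 (adjusted p = 7.7e-07). The 3 immortalized libraries together held 3 counts of ALDH1A1, against 46 in senescent and 7852 in primary ones. By these sums the gene was lower in immortalized than in senescent libraries by a ratio of 15.1 (95% counting interval 4.84 to 75.7). It was lower than in primary libraries by a ratio of 2457 (840.4 to 11916).

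ALDH1A2, the retinal dehydrogenase that makes most retinoic acid in the mouse embryo, was a low gene with a peak at the senescent stage. It had 0.0988, 0.129 and 0.0544 CPM in primary libraries (2, 3 and 1 counts), 1.84, 1.47 and 1.39 CPM in senescent ones (38, 28 and 27 counts) and 0.274, 0.0997 and 0.152 CPM in immortalized ones (5, 2 and 3 counts). Senescent libraries did not overlap with either of the other stages, and primary and immortalized libraries overlapped. The log2 change was 3.49 ± 0.38 for senescent against primary libraries (adjusted p = 0.000121) and -2.98 ± 0.34 for immortalized against senescent ones (adjusted p = 0.000307). Immortalized and primary libraries were both near the floor, and their difference did not pass (0.51 ± 0.53, 95% interval -0.70 to 1.73, adjusted p = 0.555). Its highest level, 1.84 CPM, rests on 38 counts. Several lists of markers of other cell types were also highest in senescent libraries. The 5 endothelial markers summed to 2.99 to 3.75 CPM in primary, 11.3 to 13.3 CPM in senescent and 4.50 to 5.06 CPM in immortalized libraries, with 1, 0 and 0 of the 5 at 0 counts. The 7 skeletal muscle markers summed to 0.979 to 1.73, 4.59 to 5.51 and 1.59 to 2.64 CPM at the stages in that order, and the 7 liver markers to 0.474 to 0.642, 2.81 to 3.25 and 0.349 to 0.823 CPM. Kidney markers (0.567 to 0.677 CPM) and keratinocyte markers (at least 0.954 CPM) were highest there too, without overlap. The number of genes with at least 1 count was likewise largest in senescent libraries, 14427 to 14737 in primary, 16024 to 16132 in senescent and 14981 to 15235 in immortalized ones. The part of these in the ALDH1A2 and CYP26B1 levels was not tested. In bulk RNA, fewer cells of a type and less RNA per cell cannot be told apart.

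CYP26B1, an enzyme that clears retinoic acid and is itself switched on by it in many cell types, was also highest in senescent libraries. It had 5.78, 32.5 and 20.1 CPM in primary libraries, 50.9, 55.8 and 52.0 CPM in senescent and 1.26, 0.947 and 1.06 CPM in immortalized ones. Here too the stages did not overlap. It averaged 52.9 ± 2.5 CPM in senescent libraries, against 19.5 ± 13 CPM in primary ones (SD, n = 3 each), and the difference did not pass (log2 change 1.04 ± 0.42, 95% interval 0.07 to 2.00, adjusted p = 0.0622). It passed without primary library 1 (0.62, adjusted p = 0.0079) and without primary library 2 (1.55, adjusted p = 0.0064). It also passed under total-count scaling (1.44, adjusted p = 0.0310), with DESeq2 (1.04, adjusted p = 0.0339) and with limma-voom (1.24, adjusted p = 0.0293). In immortalized libraries the gene fell, with a log2 change of -5.43 ± 0.54 relative to senescent ones (adjusted p = 0.000158) and of -4.40 ± 0.52 relative to primary ones (adjusted p = 0.000198).

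RARRES1, named for its response to retinoic acid through RAR receptors and known in human tissues as a gene often silenced in tumours, stayed above 11 CPM at the senescent stage and was under 1 CPM at the immortalized one. It had 18.2, 15.0 and 17.5 CPM in primary libraries, 12.1, 11.6 and 11.4 CPM in senescent and 0.714, 0.748 and 0.860 CPM in immortalized ones. The stages did not overlap, and most of the drop lay between the senescent and the immortalized libraries. The log2 change was -1.02 ± 0.17 for senescent against primary libraries (adjusted p = 0.00112), where total-count scaling gave -0.53. For immortalized against senescent libraries it was -3.74 ± 0.21 (adjusted p = 7.8e-06), and for immortalized against primary ones -4.76 ± 0.21 (adjusted p = 6.4e-07). The sum of 5 immune cell markers stood lower along with RARRES1 and ALDH1A1. It was 14.7 to 17.3 CPM in primary, 8.60 to 10.4 CPM in senescent and 1.76 to 4.25 CPM in immortalized libraries. In a library of each stage, 1 to 3, 0, and 0 to 2 of these 5 genes were at 0 counts. Not every marker thus followed the sum, and the part of these markers in the result was not tested.

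Among the receptors, RARG stepped down through the stages, RARB was near 0 at the last stage and RARA stayed between 85.4 and 118 CPM throughout. RARG, the receptor that predominates in skin, had 45.0, 62.9 and 63.7 CPM in primary libraries, 33.4, 31.6 and 33.7 CPM in senescent and 16.1, 16.9 and 14.7 CPM in immortalized ones. Its stages did not overlap. The log2 change was -1.26 ± 0.11 for senescent against primary libraries (adjusted p = 2.9e-05), -0.89 ± 0.11 for immortalized against senescent ones (adjusted p = 0.000376) and -2.15 ± 0.11 for immortalized against primary ones (adjusted p = 1.2e-06). In each of the 3 comparisons it passed under all 19 alternatives tried. The sum of 6 pericyte and smooth muscle markers stepped down in the same order as RARG and CRABP2. It was 493.6 to 524.4 CPM in primary, 364.2 to 376.8 CPM in senescent and 223.7 to 251.1 CPM in immortalized libraries. Of the 6 markers, 1 to 2, 0 to 1, and 1 were at 0 counts at these stages. The part of these markers in these results was not tested.

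RARB, the receptor gene that retinoic acid itself induces through an element in its promoter, had 0.741, 2.63 and 1.74 CPM in primary libraries, 2.47, 1.68 and 2.06 CPM in senescent and 0.0549, 0.0499 and 0 CPM in immortalized ones. Primary and senescent libraries overlapped, and their difference did not pass (-0.16 ± 0.36, 95% interval -0.98 to 0.66, adjusted p = 0.716). Its sign turned without primary library 2 and under total-count scaling. The 3 immortalized libraries together held 2 counts, against 123 in senescent and 108 in primary ones. RARB was thus lower in immortalized than in senescent libraries by a ratio of 60.4 (95% counting interval 16.4 to 504.3) and lower than in primary ones by a ratio of 50.7 (13.7 to 423.9).

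RARA, the most widely expressed of the receptors, had 118, 88.7 and 99.4 CPM in primary libraries, 102, 103 and 98.2 CPM in senescent and 85.4, 90.0 and 92.6 CPM in immortalized ones. Primary libraries overlapped with both later stages, whereas the senescent and the immortalized ones did not overlap. After TMM scaling RARA passed as lower in senescent libraries (-0.51 ± 0.17, adjusted p = 0.0322) and in immortalized libraries (-0.53 ± 0.17, adjusted p = 0.0326), each relative to primary ones. Under total-count scaling these changes were -0.01 (adjusted p = 0.934) and -0.19 (adjusted p = 0.199) and neither passed. The first call was lost under 8 of 19 alternatives and the second under 10. Leaving out a single library ended the first call for any of the 3 senescent libraries (adjusted p = 0.0786 to 0.0889) or immortalized library 2 (adjusted p = 0.0509). The second ended for any of the 6 senescent and immortalized libraries (adjusted p = 0.0524 to 0.0982). Without primary library 1 both calls held, at -0.28 and -0.31. Immortalized and senescent libraries differed by -0.02 ± 0.17 (95% interval -0.41 to 0.38, adjusted p = 0.953).

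**Figure D2:**
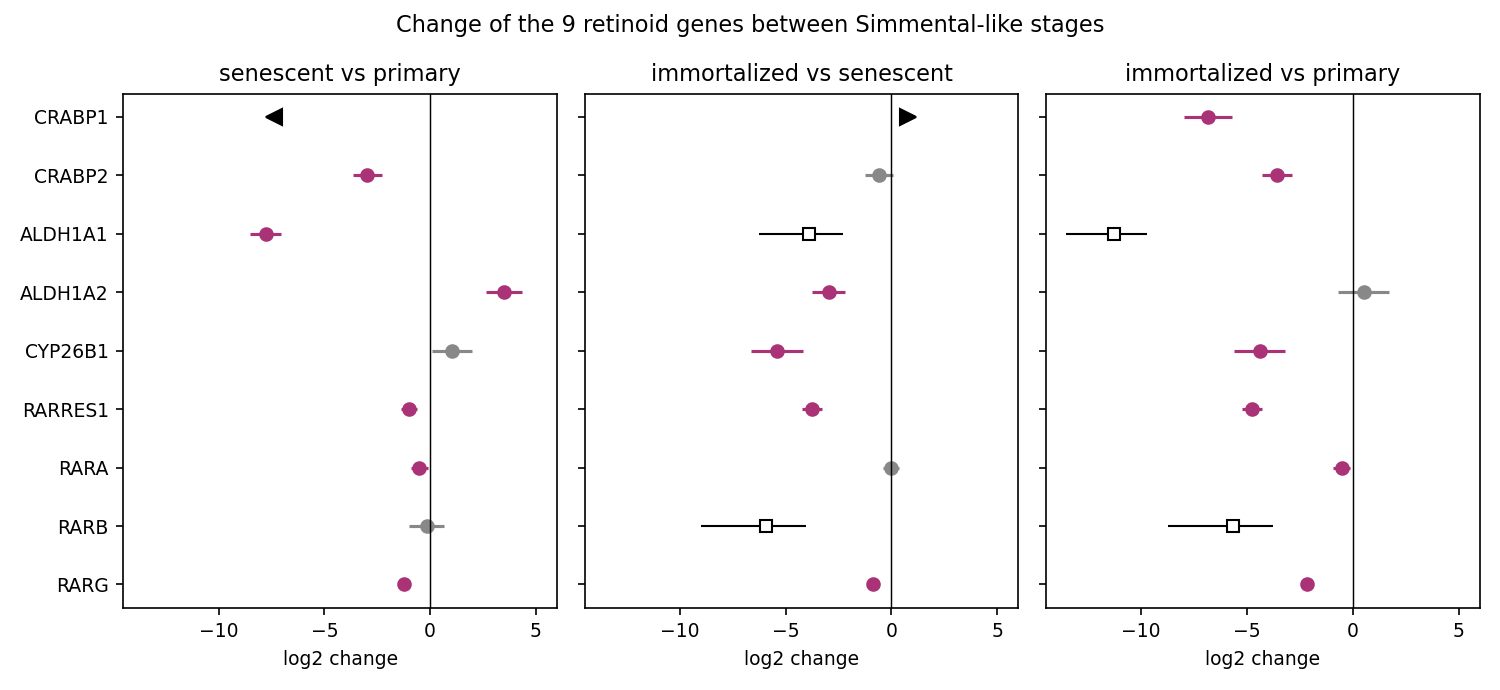
Log2 change of the 9 retinoid genes in the 3 Simmental-like comparisons. Circles are fitted changes with 95% intervals, purple past the threshold and grey not past it. Open squares are ratios of summed counts with 95% counting intervals for genes with 1 to 3 counts in a stage. Triangles are ratios to a floor of 3 counts where a stage had 0, without counting error. RARA lies within 0.53 of 0 in each comparison, whereas ALDH1A1 reaches -7.78 between senescent and primary libraries.

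The spread between primary libraries was wider than at both later stages for 5 of the 9 genes, CRABP2, CYP26B1, RARRES1, RARA and RARG. The coefficient of variation of CYP26B1 was 68.8% in primary, 4.82% in senescent and 14.6% in immortalized libraries. For RARG it was 18.5%, 3.51% and 6.98%. For RARRES1 it was 10.1%, 3.36% and 9.92%, so its primary and immortalized libraries were nearly alike in spread. The other 4 varied most in immortalized libraries, where they had 0 to 5 counts per library. There the coefficient of variation was 99.5% for ALDH1A1, 86.9% for RARB, 51.2% for ALDH1A2 and 37.3% for CRABP1, and in primary libraries it was 29.1%, 55.5%, 40.0% and 24.1% in that order of genes. CYP26B1 and RARB were lowest in primary library 1 and highest in primary library 2, an order shown by 45.1% of the 11415 genes with a mean of at least 1 CPM in these libraries. CRABP1, CRABP2, RARRES1 and RARA had the opposite order, with library 1 highest and library 2 lowest, as did 25.3% of those genes. ALDH1A1 and RARG were lowest in library 1 and highest in library 3, as were 15.5%. The 9 genes did not share 1 order of the primary libraries.

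Some other genes followed the members closely over the 9 Simmental-like libraries. Likeness was measured as the root mean square difference of log2 CPM after TMM scaling, each gene centred on its own mean, over 11324 to 11325 genes. CRABP2 was followed most closely by PSD (difference 0.14) and by SULT1A1, a sulfotransferase (0.15). RARG was followed by ACSL5, a fatty acid ligase (0.09), MAN1C1 (0.09) and HSPB8, a small heat shock protein (0.12). The nearest genes to CRABP1 were TNFRSF6B, a decoy receptor (0.39), FES, a tyrosine kinase (0.44), and the homeobox gene BARX1 (0.51). ALDH1A1 had looser neighbours in pattern, the proteoglycan genes BGN (0.72) and FMOD (0.75) and LAPTM5 (0.75).

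ADAMTS5, a protease that cuts aggrecan, was the gene nearest to both RARB (0.33) and CYP26B1 (0.43). It averaged 28.7 CPM in primary, 46.3 CPM in senescent and 1.80 CPM in immortalized libraries. ALDH1A2 was followed by CREBRF (0.22), which averaged 2.58, 21.9 and 3.42 CPM at the stages in that order, by ST8SIA4 (0.28) and by the endothelin receptor EDNRB (0.33). RARRES1 was followed by GPX3, a secreted glutathione peroxidase (0.27), and RARA by WDR55 (0.05). For MMP27 and CRABP2 the difference was 0.21, for HENMT1 and POMT1 with RARRES1 0.36 each, for SAP18 and RFC5 with RARA 0.06 each, for EGLN3 and TGM3 with RARB 0.38 and 0.41, and for MXRA5 and DSC2 with CYP26B1 0.60 and 0.62.

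The change of a member was not shared by all genes beside it in RefSeq gene order. For each of the 9 members the nearest 2 tested protein-coding genes on either side were taken, 36 in all. Between senescent and primary libraries 14 of these were higher, 10 lower and 12 did not pass, where 58% of all tested genes passed. Between immortalized and senescent libraries 10 were higher, 3 lower and 23 did not pass, where 32.4% of all tested genes passed. Between immortalized and primary libraries 13 were higher, 10 lower and 13 did not pass, where 50.4% passed. ALDH1A1 lies between ZFAND5 (log2 change 0.01, adjusted p = 0.979) and ANXA1 (-0.86 ± 0.18, adjusted p = 0.00407) in the first of these comparisons. CRABP1 lies between WDR61 (-0.76, adjusted p = 0.00121) and IREB2 (0.26, adjusted p = 0.284). In immortalized against senescent libraries CYP26B1 lies between EXOC6B (-0.52, adjusted p = 0.549) and DYSF, which rose by 0.81 (adjusted p = 0.00325). In immortalized against primary libraries both genes beside RARB were lower, as RARB was. They were TOP2B (-0.68, adjusted p = 0.00118) and THRB (-5.28 ± 0.81, adjusted p = 0.000857). THRB was also lower in senescent against primary libraries (-5.44, adjusted p = 0.000703), where RARB did not pass.

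The wider retinoid pathway was followed with 4 lists written from general knowledge, with 69 symbols, of which 67 were found and 49 were tested. In senescent against primary libraries 16 were higher, 16 lower and 17 did not pass, so 65.3% passed, against 58% of all tested genes. In immortalized against senescent libraries 5 were higher and 15 lower (40.8%, against 32.4%), and in immortalized against primary libraries 10 were higher and 15 lower (51%, against 50.4%). The median changes over the lists were -0.14, -0.26 and -0.15. Under total-count scaling the first split was 21 higher and 7 lower, where all tested genes had 5955 higher and 1840 lower instead of 3704 and 3887. The splits of the other comparisons were then 3 and 16, and 12 and 13.

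Genes of uptake and storage mostly stood lower at the later stages. Of 8 tested, 1 was higher and 6 lower in senescent against primary libraries (median -1.31), 0 and 4 in immortalized against senescent ones (median -0.97), and 0 and 6 in immortalized against primary ones (median -1.40). Of all tested genes, 29.7%, 16.1% and 25.5% were lower in these comparisons. Under total-count scaling the list had 1 higher and 5 lower, 0 and 4, and 0 and 5. FABP5, a fatty acid carrier reported to bring retinoic acid to the receptor PPARD in mouse and human cells, averaged 60.7 ± 9.4 CPM in primary, 29.1 ± 2.0 CPM in senescent and 0.208 ± 0.094 CPM in immortalized libraries. It changed by -1.53 ± 0.17 in senescent against primary libraries (adjusted p = 0.000139) and by -6.93 ± 0.26 in immortalized against senescent ones (adjusted p = 2.0e-06). RBP4, the retinol carrier of blood plasma, averaged 193 ± 12 CPM in senescent libraries, against 357 ± 106 CPM in primary ones (-1.40 ± 0.26, adjusted p = 0.00239). LPL, a lipase that also frees retinol from its esters, fell to 0.406 ± 0.051 CPM in senescent libraries, against 1.55 ± 0.16 CPM in primary ones (-2.38, adjusted p = 0.00032). LPL passed the filter on low counts only through the primary libraries. PNPLA4 also fell (-1.55, adjusted p = 0.019), a call that was lost without senescent library 1 or 2. RETSAT, retinol saturase, fell in immortalized libraries, with a log2 change of -0.68 relative to senescent ones (adjusted p = 0.0286) and of -1.32 relative to primary ones (adjusted p = 0.000709). The first of these RETSAT calls was lost without any 1 of the 6 senescent and immortalized libraries.

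Enzymes that convert or break down retinoids included genes that passed in each direction. Of 14 tested, 5 were higher and 5 lower in senescent against primary libraries (median -0.20), 2 and 4 in immortalized against senescent ones (median 0.0047), and 3 and 4 in immortalized against primary ones (median 0.08), where 58%, 32.4% and 50.4% of all tested genes passed. Under total-count scaling the first split was 6 higher and 2 lower with a median of 0.23, so the even split and the sign of the median depend on the scaling. The other medians were then -0.16 and 0.39. DHRS9, a retinol dehydrogenase, peaked with ALDH1A2: it averaged 1.13 ± 0.24 CPM in primary, 32.3 ± 1.9 CPM in senescent and 1.55 ± 0.17 CPM in immortalized libraries. It rose by 4.35 ± 0.19 in senescent against primary libraries (adjusted p = 9.9e-07) and fell by 4.22 ± 0.19 in immortalized against senescent ones (adjusted p = 3.3e-06). RDH12, a retinal reductase, rose to 2.22 ± 0.050 CPM in senescent libraries, against 0.0596 ± 0.065 CPM in primary ones (adjusted p = 5.1e-05). DHRS3, a retinal reductase that retinoic acid induces, fell to 0.832 ± 0.11 CPM in senescent libraries, against 3.96 ± 0.59 CPM in primary ones (-2.71 ± 0.25, adjusted p = 4.6e-05). DHRS7 fell by 2.38 ± 0.13 in the same comparison (adjusted p = 2.4e-06).

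ALDH1A3, a further retinal dehydrogenase of the family, was low in immortalized libraries. It averaged 25.1 ± 0.42 CPM in senescent libraries, against 36.2 ± 27 CPM in primary ones, and did not pass (-0.92 ± 0.48, adjusted p = 0.129). It averaged 0.359 ± 0.087 CPM in immortalized libraries and changed there by -5.93 ± 0.68 relative to senescent ones (adjusted p = 0.000343). CYP1B1, a cytochrome that can oxidize retinol, averaged 1.58 ± 0.52 CPM in immortalized libraries, against 57.0 ± 2.7 CPM in senescent ones (-5.00 ± 0.54, adjusted p = 0.000241). It averaged 107 ± 73 CPM in primary libraries, and its lower level in senescent than in primary libraries (-1.31, adjusted p = 0.0298) was lost under 10 of 19 alternatives, among them leaving out primary library 2 or 3 or any 1 of the senescent libraries. CYP26A1 and CYP26C1, relatives of CYP26B1, were under the filter on low counts.

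Of 13 tested partners of the RAR receptors and cofactors, 4 were higher and 2 lower in senescent against primary libraries (median 0.44), where 58% of all tested genes passed. Between immortalized and senescent libraries 1 was higher and 1 lower (median -0.28), where 32.4% of all tested genes passed, and between immortalized and primary ones 2 and 1 (median 0.43), where 50.4% passed. Under total-count scaling the first of these counts was 8 higher and 0 lower (median 0.87), and the second 0 higher and 2 lower. RXRB, an RXR partner of RAR receptors, averaged 45.4 ± 0.60 CPM in senescent libraries, against 50.8 ± 3.3 CPM in primary ones (-0.64 ± 0.092, adjusted p = 0.000579). This call was lost under total-count scaling (-0.16, adjusted p = 0.166). RXRA did not pass in any of the 3 comparisons, with changes from -0.73 to -0.15. The acetyltransferase genes EP300 and CREBBP were higher in senescent libraries, EP300 at 215 ± 6.8 CPM, against 49.1 ± 25 CPM in primary ones (1.71 ± 0.27, adjusted p = 0.0011), and CREBBP at 156 ± 1.3 CPM, against 54.7 ± 11 CPM (1.05 ± 0.11, adjusted p = 0.000115). NRIP1, a corepressor gene that retinoic acid induces, was also higher there (1.98 ± 0.54, adjusted p = 0.0143), a call that was lost without primary library 3.

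Of 14 tested genes known to respond to retinoic acid, 6 were higher and 3 lower in senescent against primary libraries (median 0.10), 2 and 6 in immortalized against senescent ones (median -0.40), and 5 and 4 in immortalized against primary ones (median -0.13), where 58%, 32.4% and 50.4% of all tested genes passed. Under total-count scaling the first count was 6 higher and 0 lower (median 0.53), so no gene of this list stayed past the threshold as lower, and the last median was 0.18. TGM2, a transglutaminase strongly induced by retinoic acid in several human cell types, averaged 0.301 ± 0.22 CPM in primary, 39.4 ± 0.90 CPM in senescent and 3.59 ± 0.22 CPM in immortalized libraries. It changed by 6.54 ± 0.35 in senescent against primary libraries (adjusted p = 2.8e-06) and by -3.29 ± 0.27 in immortalized against senescent ones (adjusted p = 6.1e-05). CD38, an enzyme that hydrolyses NAD, rose to 2.63 ± 0.14 CPM in senescent libraries, against 0.259 ± 0.012 CPM in primary ones (2.85 ± 0.36, adjusted p = 0.000282). CD38 passed the filter on low counts only through the senescent libraries. RARRES2, which encodes the secreted protein chemerin, was the opposite of RARRES1 at the last stage, with 39.1 ± 3.0 CPM in immortalized libraries, against 8.69 ± 0.46 CPM in senescent ones (2.33 ± 0.28, adjusted p = 0.000446). NR2F1, an orphan nuclear receptor gene, fell by 1.77 ± 0.24 in immortalized against primary libraries (adjusted p = 0.000377), while its relative NR2F2 rose by 0.93 ± 0.10 (adjusted p = 7.8e-05).

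**Figure D3:**
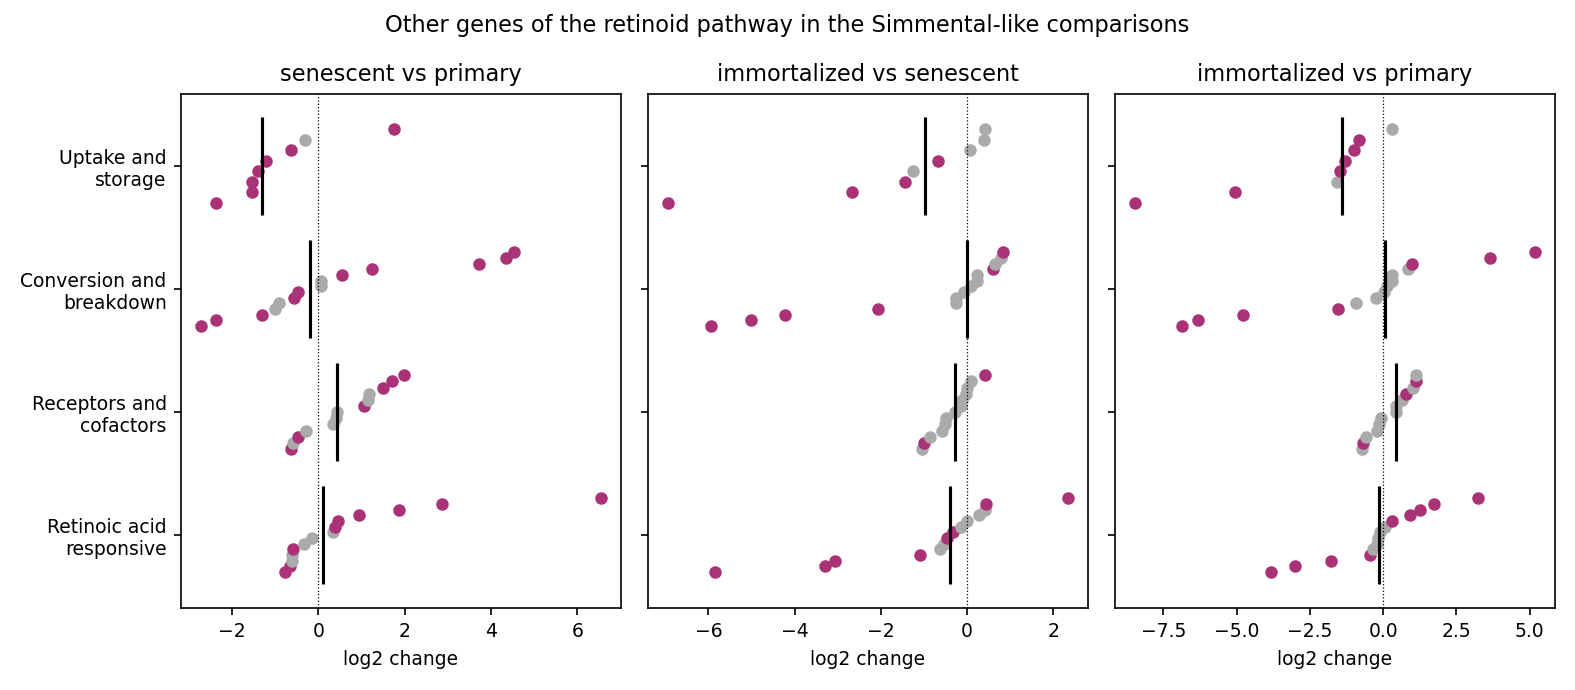
Log2 change of the 49 tested genes of 4 retinoid pathway lists in the 3 Simmental-like comparisons, with purple points past the adjusted p threshold, grey points not past it and a black bar at each list's median. Each panel has its own horizontal axis. Uptake and storage has its median below 0 in each comparison (-1.31, -0.97 and -1.40), and under total-count scaling, not plotted, as well (-0.83, -1.13 and -1.08).

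The Holstein-like libraries were taken singly, because their leading transcripts set most of them apart from cultured fibroblasts. Skeletal muscle markers took 16.8% to 16.9% of the counts of the 3 primary libraries, and the fibroblast list 0.0743% to 0.0753%. Heart markers took 3.56% of senescent library 1. Liver markers were prominent in 3 libraries, at 13.8% of the counts in the second and 12.9% in the third senescent one, and at 12.9% in the first immortalized one. Kidney markers took 0.758% of immortalized library 2, where the fibroblast list took 0.132%. In immortalized library 3 the fibroblast list took 6.69% and liver markers 0.0123%. That library also had the highest sums of endothelial markers (4976 CPM) and immune markers (4374 CPM) of all 18 libraries, where Simmental-like ones reached at most 13.3 and 17.3 CPM. Chi-square per gene between the 3 primary libraries was 1.21 to 1.23, close to counting noise.

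CRABP1, CRABP2 and RARG were highest in a single Holstein-like library. CRABP1 had 175 counts in immortalized library 3, 12.5 CPM (95% Poisson interval 10.7 to 14.5), 15 counts in immortalized library 2, and 0 or 1 count in each of the other 7 libraries. CRABP2 had 76.0 CPM in immortalized library 3 (71.5 to 80.7) and at most 1.40 CPM in any other Holstein-like library. The Simmental-like primary libraries averaged 76.1 CPM, with endothelial and immune markers summing to at most 3.75 and 17.3 CPM. RARG was likewise highest in immortalized library 3, at 70.8 CPM (66.4 to 75.3), against 3.72 to 17.7 CPM in the other 8 Holstein-like libraries. The part of the endothelial and immune markers in the levels of this library was not tested.

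ALDH1A1 was present in every Holstein-like library, whereas the later Simmental-like ones held at most 1.05 CPM. It had 78.1, 87.9 and 96.2 CPM in primary libraries, 69.4, 1213 and 786 CPM in senescent ones and 1027, 480 and 106 CPM in immortalized ones. The 3 libraries rich in liver markers held the highest values, and the library rich in kidney markers came next. The gene is known to be abundant in liver and kidney of several mammals. Senescent library 1, with liver markers at 2999 CPM, had the lowest ALDH1A1 level, 69.4 CPM. The primary libraries, with liver markers at most 1.37 CPM, had 78.1 to 96.2 CPM. The part of the organ markers in these levels was not tested.

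RARRES1 had 0 counts in each Holstein-like primary library, which allows up to 2.05 to 2.11 CPM at their depth. It had 10.9, 23.4 and 39.6 CPM in senescent libraries and 21.0, 21.7 and 75.6 CPM in immortalized ones, again highest in immortalized library 3. RARA had 16.4 to 19.9 CPM in primary, 23.2, 58.8 and 83.4 CPM in senescent and 70.5, 60.0 and 112 CPM in immortalized libraries. RARB stood at 1.47 to 7.19 CPM in the 6 later libraries, and at 4.80 CPM (3.72 to 6.09) in immortalized library 3, against at most 0.0549 CPM in immortalized Simmental-like libraries. ALDH1A2 lay between 0.682 and 5.19 CPM over the 9 libraries and was highest in immortalized library 2. CYP26B1 had at most 20 counts in any of them and lay at 0.387 to 1.82 CPM in the 6 later libraries, below the 5.78 to 32.5 CPM of the primary Simmental-like ones.

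**Figure D4:**
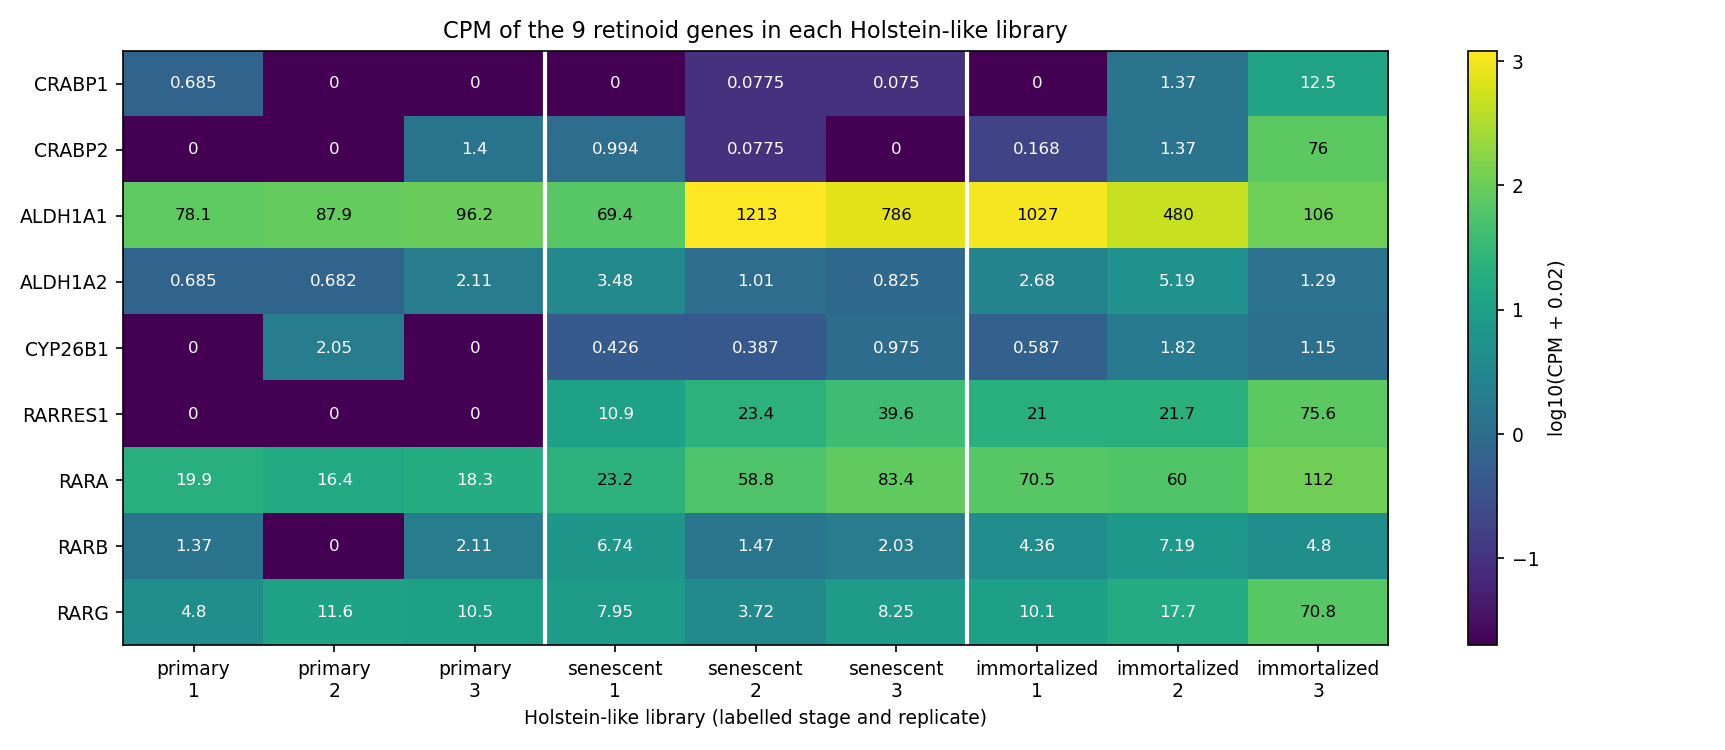
CPM by column total of the 9 retinoid genes (down the page) in each of the 9 Holstein-like libraries, ordered by labelled stage and replicate (across). The number in each cell is the CPM and the colour its log10 value after adding 0.02. CRABP1, CRABP2, RARG, RARA and RARRES1 are highest in immortalized library 3, and ALDH1A1 is highest in senescent libraries 2 and 3 and immortalized library 1.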

How the data were processed

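The authors deposited 1 table of expected counts per Ensembl gene, which its name says were estimated with salmon and merged to genes. RNeasy extraction and single-read sequencing are recorded per the labels' protocols, and the submitters' processing notes name the build UMD3.1. Neither the salmon version nor the annotation or strand setting is named in these sources. Of the values, 1.01% to 7.18% per library were not whole. Counts were rounded. CPM was computed by column total. The 9 Simmental-like libraries were fitted with edgeR 4.0.16 in R 4.3.3 (filterByExpr by stage, TMM, robust quasi-likelihood F-test). SE was taken as the absolute change divided by the root of F. Alternatives were RLE, upper-quartile and total-count scaling, the 6 libraries compared, DESeq2 1.42.0, limma-voom (limma 3.58.1), no filter, a minimum of 5 CPM in 3 libraries, a replicate block, leaving out each library, and summing senescent libraries 1 and 2. On data simulated for senescent against primary over 13099 genes, 54 of 100 genes changed 2-fold and 94 of 100 changed 4-fold were recovered, with 4 false calls.

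Ratios of summed counts use column totals and an exact binomial 95% interval. The members and lists were chosen with earlier results of these data known. Named genes were the 9 members, of each pathway list up to 4 genes per direction with the largest change past the threshold and at least 1 CPM in the higher stage (some of them named), and the 3 genes nearest to a member in pattern (2 or 3 printed with values). Other genes are named by position or as listed. Levels are not compared between genes, since transcript lengths were not used. RefSeq gene order (ARS-UCD2.0, 11529 symbols matched) served only for which genes neighbour each other.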

Additional observations from a re-analysis of the deposited data

How the results depend on the processing

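Of 505 comparisons of a member's change with an alternative, 470 kept direction and side of the threshold, 18 lost the call (each of them RARA), 13 gained it (CYP26B1, CRABP1 and CRABP2) and 4 changed sign. The sign changes were RARB in senescent against primary libraries (0.27 under total-count scaling and 0.23 without primary library 2) and RARA in immortalized against senescent libraries (0.0019 with no filter and 0.018 without immortalized library 1), none of them a call. Leaving out each library gave -0.47 to 0.23 for this RARB change and -0.046 to 0.018 for this RARA change. For immortalized against senescent libraries the number of genes called, 4249, rose to 8600 when only those 6 libraries were fitted and to 7793 without primary library 1, and pathway calls rose to 38 and 35. Leaving out each library gave 5838 to 9042 genes for senescent against primary, 2888 to 7793 for immortalized against senescent and 5191 to 8282 for immortalized against primary. Members called were then 6 to 8, 6 to 8 and 7 to 8, and pathway genes called 25 to 39, 15 to 35 and 22 to 33. Same-numbered libraries were not treated as paired, since the labels give no shared source for them. The correlation of their deviations across genes lay between -0.50 and 0.18, over 0.1 in 3 of 9 pairs. Of the 9 libraries, 1 correlated best with its own number. Deviations from means of 3 libraries cannot exclude a shared source. With the replicate block, 6743, 3466 and 5753 genes and 6, 7 and 7 members were called. Among pathway calls, 19 of 32, 15 of 20 and 19 of 25 held under every alternative tried. Depth limits ALDH1A1, ALDH1A2, RARB and CRABP1 at the stages where they had 0 to 5 counts per library.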

Other observations

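Other genes of the retinoid pathway also followed the single Holstein-like library. RBP4 had 4315 and 3880 CPM in senescent libraries 2 and 3 and 5150 CPM in immortalized library 1, the 3 libraries rich in liver markers, against 4.11 to 6.14 CPM in the primary libraries. RDH16, a retinol dehydrogenase of liver and kidney, had 523 and 784 CPM in senescent libraries 2 and 3, 476 and 698 CPM in immortalized libraries 1 and 2, and 2 counts in immortalized library 3. STRA6, the membrane receptor for RBP4, had 2173 counts (198 CPM) in immortalized library 2, rich in kidney markers, and at most 28 counts in any other Holstein-like library. FABP5 had 471 CPM in immortalized library 3, against 0.208 CPM on average in immortalized Simmental-like libraries. RXRG, the RXR gene of muscle and heart, had 26.6 to 39.7 CPM in the 3 primary libraries and 0 counts in immortalized library 2. These values are from libraries taken singly and carry no test.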
